A study of Marchantia polymorpha with 6 samples.

Results

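MpNIP and MpTIP2 are members of the aquaporin family in Marchantia polymorpha, a liverwort, and were taken by their gene IDs, Mp8g11200 and Mp6g11780, which are 2 of the 19472 genes counted in each library. Transcript levels were measured by RNA sequencing of poly(A) RNA in thalli, the flat plant body. In 3 samples the plants grew on medium with 2.5 µM sodium arsenite, a salt of trivalent arsenic, and in 3 control samples on the same half-strength Gamborg medium without it. Every plant had the genotype Cam1, a wild-type accession, and was kept at 21 °C. The labels give neither the duration of growth on arsenite nor whether replicates came from separate cultures, so p-values measure the spread between these samples, which may be technical. Where 3 values of a group are given, they stand for replicates 1, 2 and 3.

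Aquaporins are membrane channels whose subunits let water or small uncharged solutes pass along their gradient. In flowering plants, channels of the NIP class (nodulin 26-like intrinsic proteins) conduct glycerol, boric acid, silicic acid and undissociated arsenous acid, the form that arsenite takes near neutral pH, and several are known as routes by which arsenite enters root cells. The TIP class (tonoplast intrinsic proteins) lies in the vacuolar membrane and carries water and small solutes between cytosol and vacuole. What MpNIP and MpTIP2 conduct in Marchantia was not measured, and the names follow a table of gene symbols.

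With arsenite in the medium the NIP transcript fell and the TIP2 transcript rose. MpNIP fell to 19.6 ± 2.77 CPM in arsenite plants, against 34.3 ± 3.47 CPM in control plants (SD, n = 3 each), where CPM are reads per 1000000 reads on tested genes. MpTIP2 rose to 105 ± 26.6 CPM in arsenite plants, against 40.8 ± 7.00 CPM in control plants (SD, n = 3 each). They were also the only aquaporins among 8 with a symbol that passed the test at an adjusted p of 0.05. The pair was chosen with earlier results of these data known, so its passing is a description and not an independent finding. Over all 13544 tested genes 4.18% passed, 2.04% higher and 2.14% lower.

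Libraries held 26579324 to 31573867 reads in the arsenite group and 26691102 to 47532310 reads in the control group. The number of genes that passed depended on single libraries: 566 passed with all 6 libraries. Leaving out an arsenite library gave 340, 40 and 469 calls (replicates 1, 2 and 3), and leaving out a control library gave 104, 177 and 149. MpRBCS, a small subunit of Rubisco and the 1 photosynthesis marker with a symbol, stood at 62.5 to 101 CPM with arsenite and 40.1 to 68.7 CPM in controls. Markers of sperm formation were near absent, with at most 1 read per library for MpPRM and at most 2 for MpLC7. Of the other reproductive markers, the germ cell regulator MpRKD had 110 to 130 CPM with arsenite and 136 to 165 CPM in controls, and the sperm regulator MpDUO1 had 1.08 to 1.65 CPM with arsenite and 1.68 to 3.22 CPM in controls. Neither passed. Markers of oil body cells, which store terpenoids in the thallus, summed to 42.1 to 69.5 CPM with arsenite and 76.2 to 109 CPM in controls over 4 genes. MpSYP12B and MpABCG1 fell (log2 fold changes -1.41 and -1.18, calls kept in 0 and 1 of the 6 runs without 1 library), while MpERF13 and MpC1HDZ did not pass (-1.08 and -0.56). Of all tested genes 2.14% passed as lower. DESeq2 called 3 of the 4 lower, MpERF13 among them (adjusted p = 0.00735), beside 5.48% of all tested genes. For 3 of the 4, but not MpC1HDZ, all arsenite libraries lay below all controls, beside 14.4% of all tested genes. The part of oil body or germ cells in the values of MpNIP or MpTIP2 was not tested. In these whole thalli, fewer cells of a type and less RNA per cell cannot be told apart.

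MpNIP, the 1 NIP-class gene with a symbol, was covered by 5309 reads over the 6 libraries. Arsenite replicates 1, 2 and 3 had 573, 674 and 463 reads, and control replicates 1, 2 and 3 had 1488, 924 and 1187 reads. After scaling for library size these were 18.3, 22.8 and 17.8 CPM with arsenite, and 30.5, 35.3 and 37.2 CPM in controls. All arsenite libraries lay below all control libraries, with replicate 2 the highest of the arsenite group and replicate 1 the lowest of the controls. The closest pair across the groups differed 1.34-fold and the most distant pair 2.09-fold. Of all tested genes, 28.2% had groups that did not overlap, and in 14.4% of all tested genes the arsenite libraries were the lower ones.

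The log2 fold change of MpNIP, arsenite over control, was -0.81 ± 0.14 (SE), with a 95% interval from -1.14 to -0.47 and an adjusted p = 0.0322 (quasi-likelihood test in edgeR, Benjamini-Hochberg adjustment over all tested genes, as for all adjusted p-values unless another tool is named). This is a 1.75-fold lower level in arsenite plants. By size it ranked 237 among the 290 genes that passed with lower levels, so most called decreases were larger. The call rested on all 6 libraries: the adjusted p was 0.0659, 0.0746 and 0.0581 without arsenite replicates 1, 2 and 3, and 0.0696, 0.0939 and 0.0999 without control replicates 1, 2 and 3. The fold change stayed between -0.93 and -0.74 in those runs.

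MpTIP2 was covered by 13669 reads. Arsenite replicates 1, 2 and 3 had 4244, 2796 and 2223 reads, and control replicates 1, 2 and 3 had 2193, 1170 and 1043 reads. Scaled, these were 135, 94.6 and 85.4 CPM with arsenite, and 45.0, 44.7 and 32.7 CPM in controls. All arsenite libraries lay above all controls, with arsenite replicate 1 well above the other arsenite libraries and control replicate 3 the lowest of all. Arsenite libraries lay above all controls for 13.8% of the tested genes. The smallest fold for MpTIP2 between any arsenite and any control library was 1.90 and the largest 4.14.

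The log2 fold change of MpTIP2 was 1.37 ± 0.21 (SE), with a 95% interval from 0.87 to 1.86 and an adjusted p = 0.0219, a 2.58-fold higher level in arsenite plants. By size it ranked 102 among the 276 genes that passed with higher levels. MpTIP2 varied more between libraries of a group than MpNIP. Its coefficient of variation was 25.3% with arsenite and 17.2% in controls, against 14.1% and 10.1% for MpNIP, and the median over the 10630 genes that average 5 CPM or more was 11.8% with arsenite and 10.9% in controls. The call of MpTIP2 held without arsenite replicate 1 (log2 fold change 1.14, adjusted p = 0.0309) and without arsenite replicate 3 (1.50, adjusted p = 0.0158). It ended without arsenite replicate 2 (adjusted p = 0.0801) and without control replicates 1, 2 and 3 (adjusted p = 0.0675, 0.0685 and 0.0634).

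**Figure D1:**
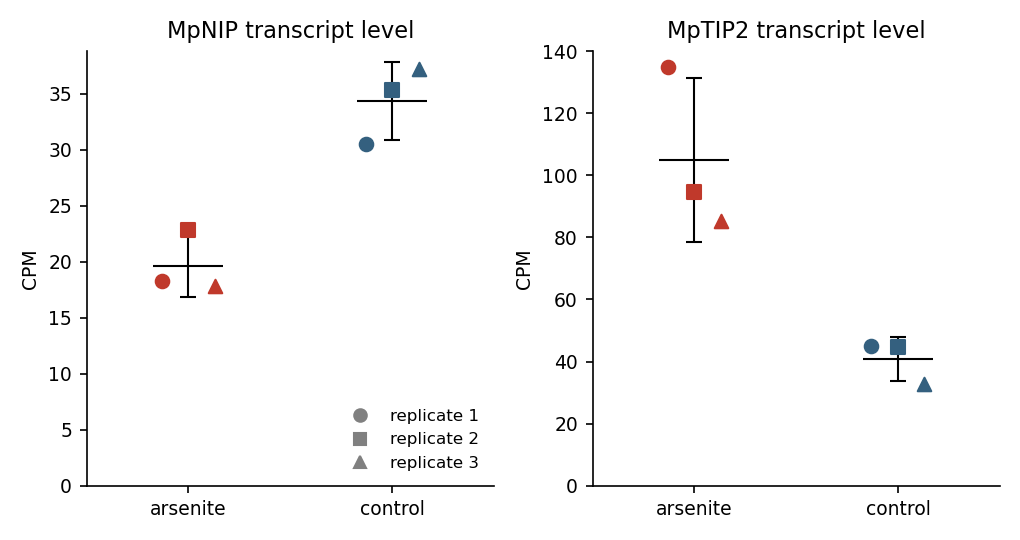
Transcript levels of MpNIP (left) and MpTIP2 (right) in CPM, with 1 point per library, the marker shape giving the replicate number, and a bar for the mean with its SD (n = 3 each). MpNIP lay between 17.8 and 22.8 CPM with arsenite and between 30.5 and 37.2 CPM in controls, whereas MpTIP2 lay between 85.4 and 135 CPM with arsenite and between 32.7 and 45.0 CPM in controls.

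Because both transcripts were counted in the same libraries, their ratio does not depend on how libraries are scaled. Arsenite replicates 1, 2 and 3 had 7.41, 4.15 and 4.80 MpTIP2 reads for each MpNIP read, and control replicates 1, 2 and 3 had 1.47, 1.27 and 0.879. Every arsenite library had a higher ratio than every control, by 2.81-fold for the closest pair and 8.43-fold for the most distant. The mean log2 ratio was 2.40 ± 0.435 with arsenite and 0.24 ± 0.384 in controls (SD, n = 3 each), a difference of 2.16, or 4.48-fold. The pair was chosen with opposite changes known, so this ratio is a description without a test. Reads were not divided by transcript length, so the ratio compares libraries and does not say which transcript was the more abundant.

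Reads of the 8 aquaporins with a symbol gave each transcript a relative measure, its share of those reads. MpTIP1 and MpPIP2, of the PIP class (plasma membrane intrinsic proteins), drew most of the reads, which were not corrected for length. The shares therefore depend mainly on MpTIP1 and MpPIP2, whose levels were higher in every arsenite library than in every control. The 6 other aquaporins together had 8609, 9909 and 9514 CPM with arsenite, and 5979, 5186 and 6220 CPM in controls. The groups did not overlap, and the mean sum was 1.61-fold higher with arsenite. MpNIP made up 0.209%, 0.228% and 0.185% of aquaporin reads with arsenite and 0.504%, 0.671% and 0.592% in controls. Its share in arsenite plants was thus 0.352 of that in control plants, beside a CPM that was 1.75-fold lower. MpTIP2 made up 1.55%, 0.944% and 0.888% with arsenite and 0.742%, 0.849% and 0.520% in controls. Those groups came close to each other, with arsenite replicate 3 just above control replicate 2.

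**Figure D2:**
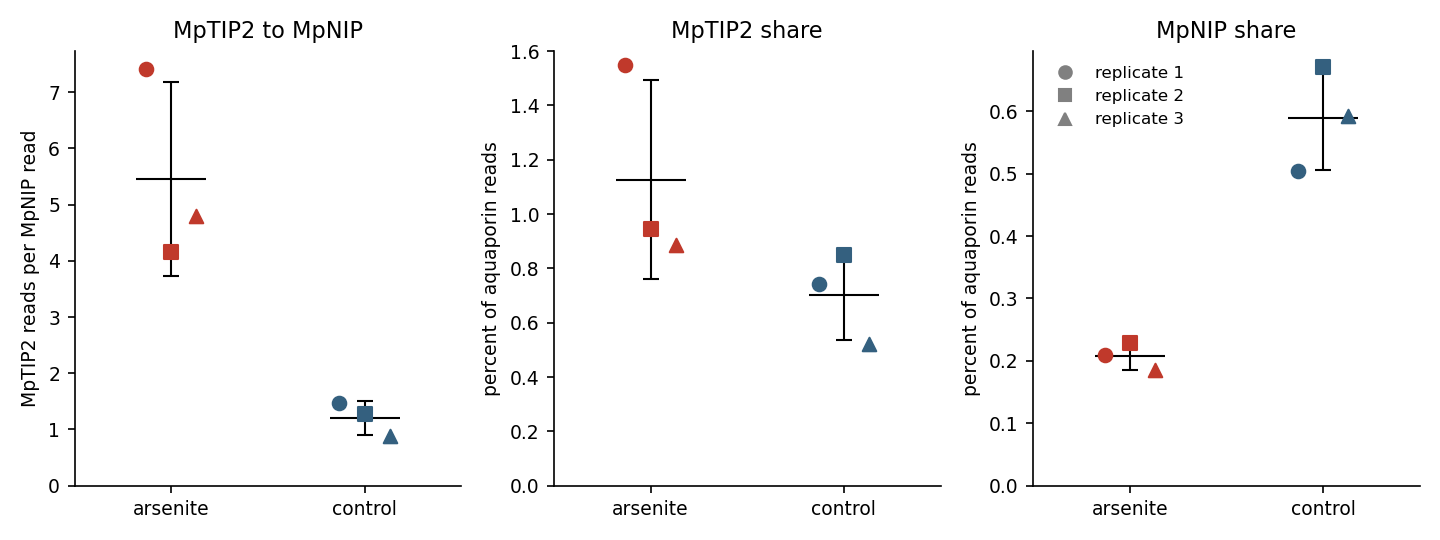
MpTIP2 reads per MpNIP read (left), and the shares of MpTIP2 (middle) and MpNIP (right) in reads of the 8 aquaporins with a symbol, in percent. There is 1 point per library and a bar for mean and SD (n = 3 each). The ratio was 4.15 to 7.41 with arsenite and 0.879 to 1.47 in controls, and the MpNIP share was 0.185% to 0.228% with arsenite and 0.504% to 0.671% in controls.

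MpTIP1 (Mp1g20890), the other tonoplast aquaporin with a symbol, had 5871, 6687 and 6611 CPM with arsenite, and 3909, 3094 and 4223 CPM in controls. The groups did not overlap, but the gene did not pass (log2 fold change 0.77 ± 0.18, SE, 95% interval 0.35 to 1.20, adjusted p = 0.0638). DESeq2 and limma voom did call it higher (adjusted p = 3.34e-05 and 0.0445). Per 1000 reads of MpTIP1 there were 23.1, 14.2 and 12.9 reads of MpTIP2 with arsenite and 11.5, 14.5 and 7.75 in controls. These overlapped, since control replicate 2 lay above arsenite replicates 2 and 3, so a larger response of MpTIP2 than of MpTIP1 did not show in every library.

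Among plasma membrane aquaporins, MpPIP2 (Mp4g17210) had 2701, 3206 and 2887 CPM with arsenite, and 2039, 2064 and 1981 CPM in controls. Its groups did not overlap, and it did not pass (log2 fold change 0.53 ± 0.13, adjusted p = 0.0788), though DESeq2 called it higher (adjusted p = 2.14e-05). MpPIP1 (Mp4g03020) and MpPIP2-like (Mp4g04460) were scarce and scattered. MpPIP1 had 8.65, 3.08 and 1.92 CPM with arsenite and 4.30, 2.90 and 1.73 CPM in controls, and its log2 fold change of 0.61 ± 0.59 became -0.26 without arsenite replicate 1. MpPIP2-like had 17.4, 4.74 and 6.07 CPM with arsenite and 18.0, 17.6 and 7.40 CPM in controls (log2 fold change -0.60 ± 0.55), and its value without arsenite replicate 1 was -1.41. In both genes arsenite replicate 1 had the highest level of its group, as in MpTIP2.

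MpXIP (Mp3g14380), of the uncategorised X intrinsic proteins, had 9.73, 6.77 and 5.92 CPM with arsenite and 6.56, 5.85 and 5.21 CPM in controls. MpHIP (Mp8g14930), of the hybrid intrinsic proteins known from mosses and lycophytes, had 1.47, 1.39 and 1.65 CPM with arsenite and 2.36, 1.76 and 1.88 CPM in controls. Neither passed (log2 fold changes 0.35 ± 0.23 and -0.42 ± 0.25), and the groups overlapped for MpXIP but not for MpHIP. Of the 8 aquaporins 5 had positive and 3 negative fold changes, with a median of 0.44 beside a median of -0.004 over all tested genes. Without arsenite replicate 1 or 3, MpTIP2 was the 1 member that passed, and none passed in edgeR without arsenite replicate 2 or without any 1 control, when 4 of 8 had an unadjusted p under 0.05, beside 16.1% to 18.3% of all tested genes in those runs. With all libraries limma voom called 3 of the 8, beside 3.92% of all tested genes, and DESeq2 called 4, beside 11.8% (6.32% higher and 5.48% lower).

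**Figure D3:**
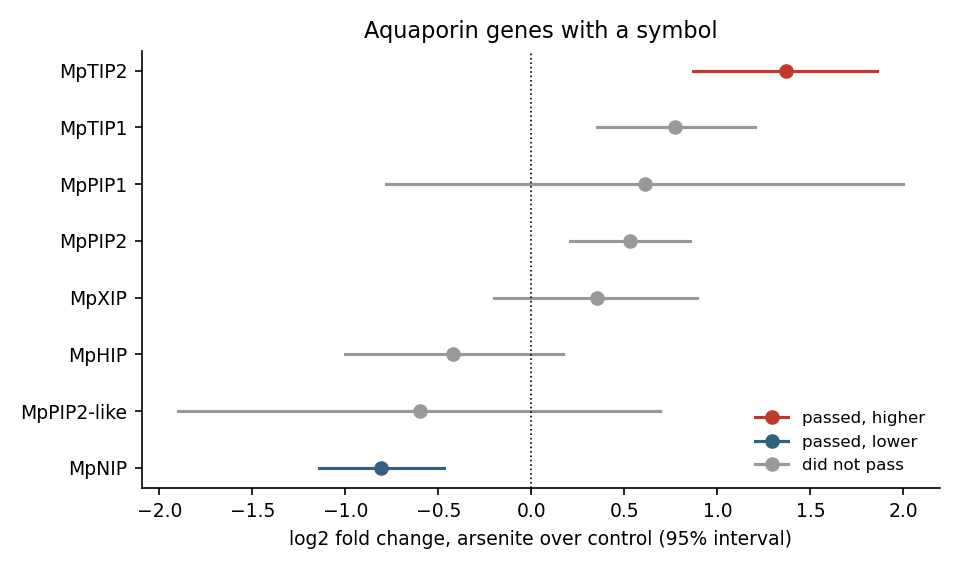
Log2 fold changes, arsenite over control, of the 8 aquaporin genes with a symbol, with points for estimates and lines for 95% intervals from edgeR's fit over all genes. MpTIP2 at 1.37 passed as higher, MpNIP at -0.81 passed as lower, and the intervals of MpTIP1 and MpPIP2 lay above 0 although these genes did not pass after adjustment.

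Genes with an ABCC or PCS symbol were examined beside MpNIP, and whether they act on arsenic in Marchantia was not tested. In Arabidopsis, some ABCC transporters load phytochelatin-bound arsenic into the vacuole, and phytochelatin synthase (PCS) makes those peptides. Of the 16 genes with these symbols 1 fell, 0 rose and 15 did not pass, with a median log2 fold change of 0.03. Of all tested genes 2.14% passed as lower and 2.04% as higher. With edgeR 6 of the 16 had an unadjusted p under 0.05, beside 21.1% of all tested genes. Groups did not overlap in 2 genes with higher and 5 with lower levels, beside 13.8% and 14.4% of all tested genes. DESeq2 called 2 higher and 3 lower, beside 6.32% and 5.48% of all tested genes. MpPCS passed in 0 of 17 alternatives, with log2 fold changes of -0.07 to 0.27. MpABCC1 fell to 3.16, 3.45 and 3.73 CPM in arsenite replicates 1, 2 and 3, against 6.11, 8.10 and 7.59 CPM in controls (log2 fold change -1.07 ± 0.19, adjusted p = 0.0330). It kept that call in 7 of 16 alternatives and lost it in each of the 6 runs without 1 library, with log2 fold changes of -1.17 to -0.99 over all alternatives. MpABCC2 and MpABCC8 had log2 fold changes of -1.02 ± 0.25 and -0.72 ± 0.18, with groups that did not overlap. Neither passed in edgeR with all libraries, though DESeq2 called both lower and MpABCC2 also passed in edgeR without arsenite replicate 3. No boron transporter of the BOR family, which in flowering plants works together with NIP channels, carried a symbol, and the efflux carrier ACR3 is not analysed here by name.

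Proton pumps and ion channels share the vacuolar membrane with the TIP class. Of 8 such genes tested, 0 passed with edgeR (4.18% of all tested genes) and 0 with limma voom (3.92% of all tested genes). DESeq2 called 1 higher (6.32% of all tested genes), and 1 reached an unadjusted p under 0.05 with edgeR (21.1% of all tested genes). That gene was MpVHA-a, a membrane subunit of the vacuolar proton ATPase. It had 412, 403 and 383 CPM with arsenite, and 297, 309 and 286 CPM in controls, so the groups did not overlap (log2 fold change 0.43 ± 0.09, adjusted p = 0.0552). The vacuolar pyrophosphatases MpAVP3 and MpAVP2 had log2 fold changes of 0.22 ± 0.12 and 0.14 ± 0.10. The potassium channels MpTPK1 and MpTPK2 had 0.36 ± 0.19 and 0.25 ± 0.12. The cation channels MpTPC1, MpTPC2 and MpTPC3 had 0.02 ± 0.11, 0.19 ± 0.15 and -0.18 ± 0.10. The list's median was 0.21, and MpAVP1 had 0 reads in all libraries.

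Phosphate carriers are the route by which arsenate, the pentavalent form of arsenic, enters the roots of flowering plants. The genes listed here as phosphate transporters all carry a PTB symbol. Whether they belong to that route or carry arsenate was not tested. All 8 PTB genes had fold changes above 0 (median 2.04 on the log2 scale), and MpPTB4 passed as higher while 7 did not pass. Of all tested genes 2.04% passed as higher. An unadjusted p under 0.05 was reached by 7 of the 8, beside 21.1% of all tested genes, and DESeq2 called 6 higher, beside 6.32%. MpPTB4 had 47.7, 37.3 and 26.4 CPM with arsenite, and 14.2, 18.4 and 9.85 CPM in controls (log2 fold change 1.39 ± 0.29, adjusted p = 0.0463). It held its call in 10 of 17 alternatives, and of the runs without 1 library only in that without arsenite replicate 3, with log2 fold changes of 1.17 to 1.62 over all alternatives. The highest level in MpPTB1 to MpPTB8 was in arsenite replicate 1 each time, which was also the highest library for MpTIP2. The log2 fold changes of MpPTB1, MpPTB2, MpPTB3, MpPTB5 and MpPTB6 were 2.42, 2.09, 2.20, 1.98 and 2.10, with standard errors of 0.53 to 0.95. MpPTB7 and MpPTB8 had 1.36 ± 0.34 and 0.92 ± 0.26. PTB genes 1 to 6 have neighbouring IDs, and reads that fit several of them cannot be placed with certainty.

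Likeness was measured as Pearson's r of log2 CPM over the 6 libraries, among the 2127 genes that carry a symbol and average 5 CPM or more. Since the libraries form separate groups, r takes in the difference between groups and is a description only. Choice by r also favours genes with the same order of libraries within a group, so a shared order is no separate likeness. The nearest genes to MpTIP2 were MpGPAT6c, an acyltransferase of the family that makes cutin precursors (r = 0.992), the glycosyltransferase MpUGT22 (0.987), MpNBS-LRR8, of the class of intracellular immune receptors (0.983), MpDOXC28, of the oxoglutarate-dependent dioxygenases (0.982), and the class III peroxidase MpPOD73 (0.980). MpGPAT6c had 113, 85.0 and 78.0 CPM with arsenite, and 35.0, 38.1 and 30.7 CPM in controls. It followed MpTIP2 in size as well as in order among arsenite libraries, with a log2 fold change of 1.41 ± 0.17 (adjusted p = 0.0108; 0.0627 without arsenite replicate 2 and 0.0510 without control replicate 1). MpUGT22, MpNBS-LRR8 and MpDOXC28 also rose (log2 fold changes 0.68, 0.63 and 0.91), and MpPOD73 did not pass (0.59, adjusted p = 0.0676). Of the runs without 1 library, those 3 calls held only in that without arsenite replicate 3, and the adjusted p reached 0.104, 0.117 and 0.106.

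The nearest genes to MpNIP were MpMpSTR2 (r = 0.988), the glycoside hydrolase MpGH31.8 (0.983), the MYB-family gene Mp1R-MYB1 (0.982), the auxin influx carrier MpAUX1 (0.982) and the ARID-domain gene MpARID4 (0.979). MpAUX1 fell to 129, 138 and 131 CPM in arsenite replicates 1, 2 and 3, against 196, 213 and 221 CPM in controls (log2 fold change -0.66 ± 0.09, adjusted p = 0.0175). That call held without arsenite replicate 1 or 3 and ended without arsenite replicate 2 (adjusted p = 0.0804) and without control replicates 1, 2 and 3 (adjusted p = 0.0510, 0.0533 and 0.0656). Its control libraries ranked as for MpNIP, and arsenite replicate 2 was the highest of its group in both, an order that choice by r favours. MpMpSTR2, MpGH31.8, Mp1R-MYB1 and MpARID4 did not pass, with log2 fold changes of -0.32, -0.62, -0.18 and -0.19. An r above 0.95 was reached by 28 of the 2127 genes for MpNIP and by 17 for MpTIP2.

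**Figure D4:**
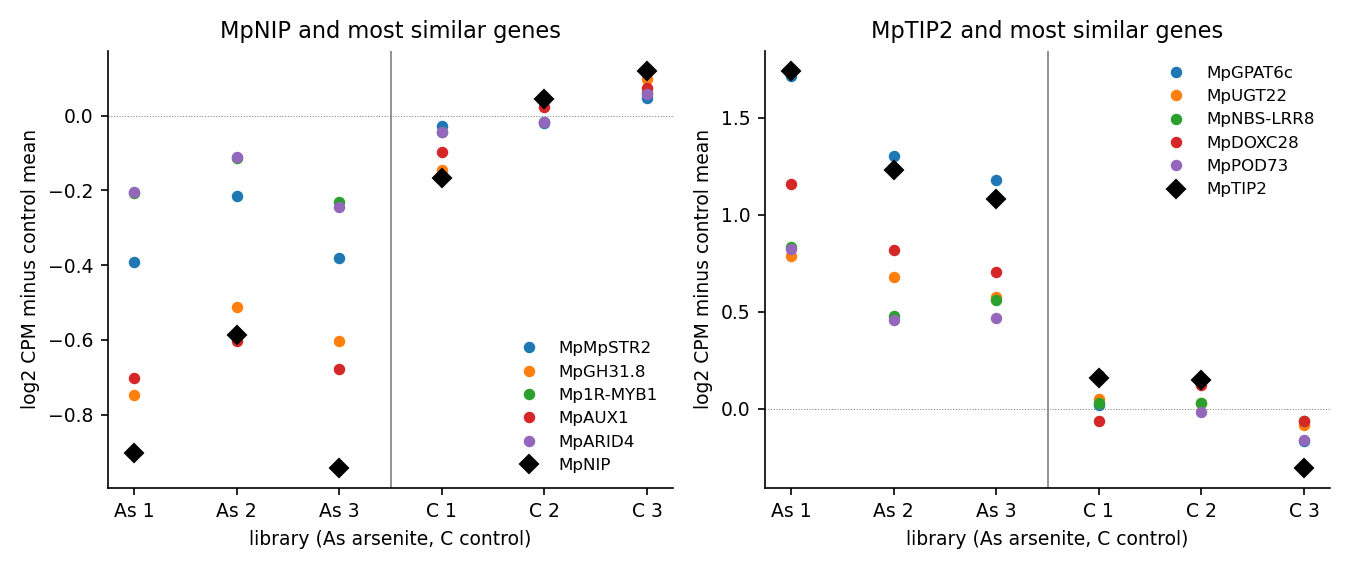
Log2 CPM minus the control mean in each library for MpNIP (left) and MpTIP2 (right), shown as black diamonds, and for the 5 genes with a symbol most like each, shown as coloured points. MpGPAT6c lies close to MpTIP2 in all arsenite libraries. The genes most like MpNIP rank the control libraries as MpNIP does, which choice by r favours. Those genes lie nearer to 0 than MpNIP in arsenite replicates 1 and 3.

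The genes that flank the aquaporins were read from the same libraries. In the table of names neither MpNIP on chromosome 8 nor MpTIP2 on chromosome 6 overlaps another gene. The gene before MpNIP had 0 to 4 reads per library. The gene directly before MpTIP2 in that table has no matching ID among the counted genes, and MpERF22, the preceding ID in the files, had 0 reads in all libraries. The gene after MpTIP2, Mp6g11790, had 194, 136 and 137 CPM with arsenite, and 108, 83.6 and 71.3 CPM in controls. Its groups did not overlap and it did not pass (log2 fold change 0.83 ± 0.20, adjusted p = 0.0706). The gene after MpNIP, Mp8g11210, had 13.4, 11.2 and 18.6 CPM with arsenite and 12.8, 12.7 and 10.9 CPM in controls. There the groups overlapped (log2 fold change 0.24 ± 0.21, adjusted p = 0.539), and the value lay on the other side of 0 from that of MpNIP.

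**Figure D5:**
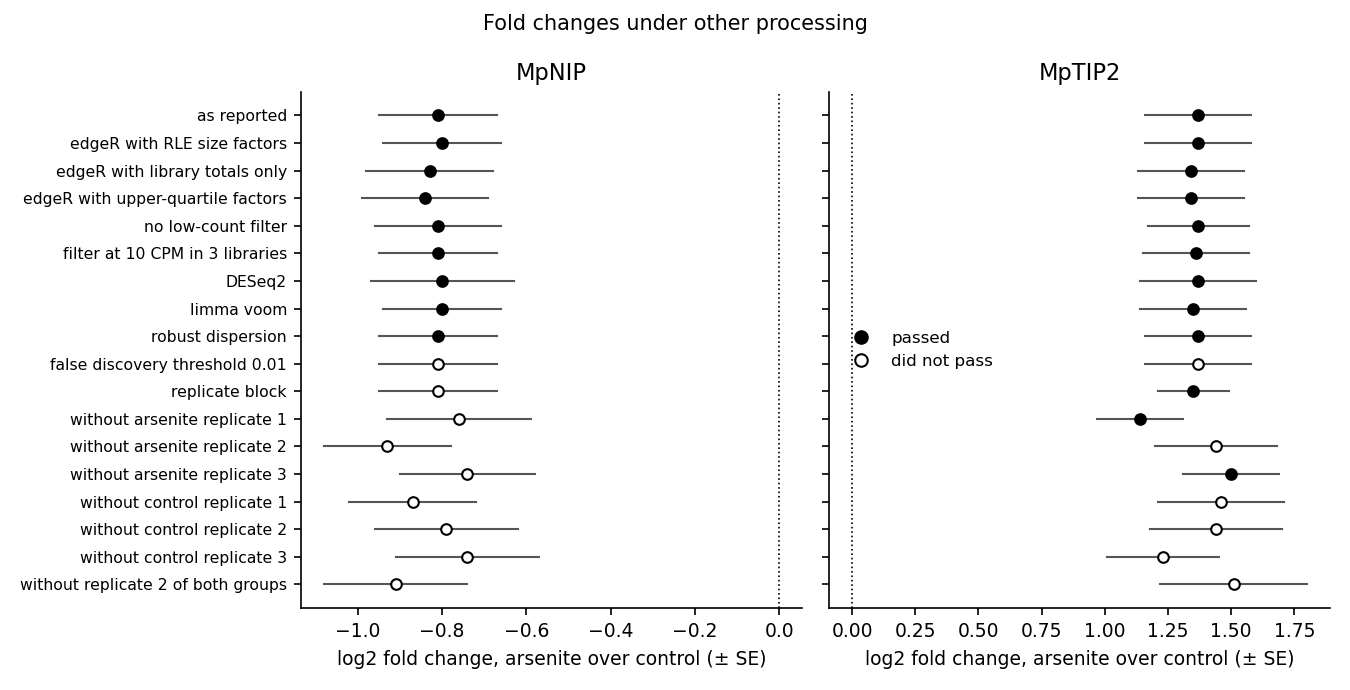
Log2 fold changes, arsenite over control, with SE for MpNIP (left) and MpTIP2 (right) as reported (top) and under 17 other settings, with filled points where the gene passed and open points where it did not. Estimates stayed between -0.93 and -0.74 for MpNIP and between 1.14 and 1.51 for MpTIP2, while the calls depended on which libraries were included.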

How the data were processed

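The authors deposited raw counts of reads for each gene in a file per sample. The file names give htseq-count on Galaxy; aligner, tool versions, genome build, annotation and strand setting were not given in the sources used here. Counts of antisense partners and near-identical paralogs are therefore uncertain. Gene symbols were taken from the names of assembly MpTak2_v7.1, matched by locus number (17671 of 18391 locus tags); genes without a symbol could enter no list. Groups came from sample titles. No libraries of a group agreed within sampling noise (chi-square per degree of freedom of at least 41.3).

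Counts were tested with edgeR 4.0.16 in R 4.3.3 (quasi-likelihood, TMM, default low-count filter, adjusted p under 0.05 over 13544 genes, no block), after a check on simulated data. DESeq2 1.42.0 and limma 3.58.1 (voom), other scalings, filters and thresholds, a replicate block and runs without each library were alternatives. CPM used TMM-scaled library sizes, and log2 CPM a prior count of 2. Named genes were the aquaporins, list members (the 3 with the smallest adjusted p where a list had more than 12) and the 5 most similar genes with a symbol; germ cell and other markers and flanking genes were added. Lists were stems of symbols; those of boron transporters and rhizoid markers matched no symbol, and the sporophyte marker MpBELL1 had 2 to 14 reads per library. Members and lists were chosen with earlier results of these data known. Sequences are not used here.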

Additional observations from a re-analysis of the deposited data

How the results depend on the processing

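MpNIP stayed negative and MpTIP2 positive under all 17 alternatives, but the calls were less stable. Of these alternatives 1, the threshold of 0.01, reused the reported fit and could change calls but no sign. At a threshold of 0.01 neither passed (-0.81 and 1.37), and 57 genes and 0 aquaporins did. With the replicate number as a block the log2 fold change of MpNIP was -0.81 (adjusted p = 0.0523), that of MpTIP2 1.35 (adjusted p = 0.0219), and 364 genes and 1 aquaporin passed. Deviations of libraries with the same number had r of 0.008, -0.111 and 0.187, within the range of -0.453 to 0.408 for different numbers. With so few pairs this cannot show whether the numbers mark pairs, and the reported fit took none. The block lowered the SE of MpTIP2 from 0.21 to 0.14 and left that of MpNIP at 0.14. It raised that of MpTIP1 from 0.18 to 0.24. Leaving out 1 library gave -0.93 to -0.74 for MpNIP, 1.14 to 1.50 for MpTIP2, 1.92 to 2.34 for the log2 difference in their ratio, -0.26 to 0.99 for MpPIP1, 40 to 469 genes and 0 to 1 aquaporins. Chosen after seeing the data, leaving out replicate 2 of both groups, whose file names carry a lane number, gave -0.91 for MpNIP (adjusted p = 0.214) and 1.51 for MpTIP2 (adjusted p = 0.226), with 0 genes and 0 aquaporins passing and 1736 genes and 4 aquaporins at an unadjusted p under 0.05. DESeq2 called 1598 genes and 4 aquaporins, and a filter at 10 CPM in 3 libraries left 355 genes called of 9503. Library totals as the only scaling gave 260 higher and 337 lower calls, beside 276 and 290. No other scaling, filter or test changed the calls of MpNIP or MpTIP2. Depth was 463 to 1488 reads per library for MpNIP and 1043 to 4244 for MpTIP2. The cause of the lost calls was not tested; fewer libraries were fitted in those runs.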
